A study of Homo sapiens with 24 samples.

Results

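The regions described here carried an H4K20me3 peak in all 4 libraries of siSUV420H1 cells and in none of the 4 libraries of siNC cells. H4K20me3 is histone H4 trimethylated at lysine 20. Each library came with a list of broad peaks, that is, of long stretches in which the mark was called enriched. The genome was divided into bins of 1 kb, bins covered in all 4 siSUV420H1 and no siNC library were kept, and neighbouring kept bins were joined. This gave 1377 gained regions over 4189 bins, against 19894 regions in which any of the 8 libraries had a peak. Of the 276687 bins covered in at least 1 of these 8 libraries, 1.51% were gained. The regions were chosen by the peaks of these 8 libraries, so their presence after siSUV420H1 and absence after siNC is a description and was not tested.

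H4K20me3 was mapped by CUT&RUN, in which a nuclease tethered to an antibody cuts out the DNA around the marked histones, in HN-SCC-151, an HPV-negative line of head and neck squamous cell carcinoma labelled wild type. The siRNA arm set cells given siRNAs against SUV420H1 (siSUV420H1, 4 libraries) against cells given control siRNAs (siNC, 4 libraries). The inhibitor arm, whose H4K20me3 libraries had no part in choosing the regions, set cells given 2.5 µM A-196 (3 libraries) against cells given DMSO (3 libraries). Treatment lasted 6 days in both arms, and each CUT&RUN reaction held 500000 cells. The series text speaks of 3 dishes for each condition, and the labels do not say how the 4 libraries of each siRNA group relate to them, so the spread between libraries may in part be technical. All cells were of 1 line, the siRNA sequences were not given in the labels, and neither transcripts nor proteins were measured in the lists used, so they check neither the knockdown nor the cell type. The lists held positions only, on hg38, so neither the depth of a library nor the strength of a peak is known, and an absent peak means only that none was called.

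SUV420H1, whose gene is KMT5B, and its paralog SUV420H2 (KMT5C) add methyl groups to H4 lysine 20 that already carries a single one. The trimethylated form is a mark of constitutive heterochromatin, the packed chromatin of satellite and other repeats, and it is also found with H3K9me3 over clusters of zinc finger genes. A-196 inhibits both enzymes. The comparison asks where peaks were called after the enzyme was targeted but not in control cells, in a library set in which the mark otherwise covered less: siSUV420H1 libraries had 9325 to 10203 peaks over 3.84 to 4.2% of all bins, against 13818 to 14675 peaks over 5.92 to 6.26% in siNC libraries. With the reverse rule, bins covered in all 4 siNC and no siSUV420H1 library formed 9375 lost regions over 47.092 Mb, against 4.189 Mb in gained regions. A further 6223 regions of 72.977 Mb were covered in all 8 libraries.

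Promoters lay inside gained regions of 5 kb or more for 22 protein-coding genes, 13 of them with a ZNF symbol; RBAK, which also encodes a zinc finger protein, is not counted as one, and a readthrough gene shares its window with the gene it starts from. Of these, 6 are printed because they are the promoters of the widest such regions, 1 to a region. They show gene starts under the peaks, and the sequence of whole gained regions was not analysed here. Each line gives 300 bases, from 250 before to 50 after the gene's start in RefSeq on GRCh38.p14, read 5′ to 3′ on the gene's strand. Capitals mark CG dinucleotides, the sites of DNA methylation.
ZNF680, chr7:64563022-64563321, minus strand: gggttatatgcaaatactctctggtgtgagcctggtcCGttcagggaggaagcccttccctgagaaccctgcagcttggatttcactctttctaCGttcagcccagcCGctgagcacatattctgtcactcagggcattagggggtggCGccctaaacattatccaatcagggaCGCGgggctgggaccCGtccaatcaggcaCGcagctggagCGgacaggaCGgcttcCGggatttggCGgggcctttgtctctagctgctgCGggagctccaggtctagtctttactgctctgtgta
ZNF773, chr19:57499688-57499987, plus strand: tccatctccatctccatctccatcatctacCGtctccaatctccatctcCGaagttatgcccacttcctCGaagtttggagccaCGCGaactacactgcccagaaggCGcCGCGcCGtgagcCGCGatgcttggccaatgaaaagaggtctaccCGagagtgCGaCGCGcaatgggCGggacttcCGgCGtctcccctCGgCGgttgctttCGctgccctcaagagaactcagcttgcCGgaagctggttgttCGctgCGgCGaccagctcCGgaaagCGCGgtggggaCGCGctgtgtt
ZNF235, chr19:44304976-44305275, minus strand: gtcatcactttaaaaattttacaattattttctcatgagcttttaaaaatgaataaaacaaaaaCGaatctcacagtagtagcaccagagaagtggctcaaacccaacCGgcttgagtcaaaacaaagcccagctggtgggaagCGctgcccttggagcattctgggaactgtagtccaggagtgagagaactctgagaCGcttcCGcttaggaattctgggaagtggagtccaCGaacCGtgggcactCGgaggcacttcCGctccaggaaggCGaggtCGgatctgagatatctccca
ZNF814, chr19:57888988-57889287, minus strand: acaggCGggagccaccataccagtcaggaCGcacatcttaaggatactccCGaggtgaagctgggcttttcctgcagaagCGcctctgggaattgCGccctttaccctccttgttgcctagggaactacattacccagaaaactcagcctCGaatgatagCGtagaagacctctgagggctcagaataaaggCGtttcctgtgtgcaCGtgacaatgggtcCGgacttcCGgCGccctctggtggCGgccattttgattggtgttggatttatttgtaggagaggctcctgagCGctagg
RUNDC3B, chr7:87628148-87628447, plus strand: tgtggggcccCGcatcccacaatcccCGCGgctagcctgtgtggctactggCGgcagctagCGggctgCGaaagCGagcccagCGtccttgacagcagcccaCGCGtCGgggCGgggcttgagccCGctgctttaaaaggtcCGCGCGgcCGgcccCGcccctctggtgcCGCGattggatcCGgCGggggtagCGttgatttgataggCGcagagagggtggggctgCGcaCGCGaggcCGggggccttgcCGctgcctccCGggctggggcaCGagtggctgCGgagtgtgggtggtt
ANHX, chr12:133235828-133236127, minus strand: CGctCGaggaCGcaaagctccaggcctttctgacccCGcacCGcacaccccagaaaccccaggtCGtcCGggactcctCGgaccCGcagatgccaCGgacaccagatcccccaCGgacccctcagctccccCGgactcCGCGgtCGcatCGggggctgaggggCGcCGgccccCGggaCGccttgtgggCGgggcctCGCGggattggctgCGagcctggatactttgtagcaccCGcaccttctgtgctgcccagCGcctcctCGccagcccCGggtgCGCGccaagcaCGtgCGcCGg

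The first 4 of these genes, ZNF680, ZNF773, ZNF235 and ZNF814, encode zinc finger proteins of the C2H2 type, a large family of DNA-binding proteins, and ANHX encodes a homeobox protein. The printed windows held 13 CG dinucleotides for ZNF680, 30 for ZNF773, 11 for ZNF235, 14 for ZNF814, 32 for RUNDC3B and 33 for ANHX. Over the 22 windows inside wide gained regions the median was 21.5 CG dinucleotides and 59.0% G or C. Windows inside lost regions of 5 kb or more, of 109 genes with 1 zinc finger gene among them, had a median of 4 CG dinucleotides and 46.7% G or C. The 265 windows inside regions of 5 kb or more covered in all 8 siRNA-arm libraries, 90 of them of zinc finger genes, had 19 and 58.3%, and all 15843 coding genes with a window had 22 and 62.7%. By base composition the promoters under gained regions therefore lay near those of constantly covered regions and of all genes, and above those of lost regions. The motif TATAAA, searched on both strands, was in 1 of the 22 windows (4.55%), in 19.3% of windows in lost regions and in 9.63% of all windows. GGGCGG, searched in the same way, was in 11 of the 22 windows (50%), in 22.9% of those in lost regions and in 58.5% of all. A match is a run of letters and not a shown binding site.

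Most gained regions were short, and most of the gained length was not. Of the 1377 regions, 630 were a single bin of 1 kb and 1021 were under 5 kb, with a median width of 1 kb and 1623 kb in all. The other 356 regions, of 5 kb or more, had a median width of 7 kb, reached 26 kb and summed to 2566 kb, or 61.3% of the gained length. Just inside the limit, 109 regions were 5 kb wide, and just outside it, 55 were 4 kb wide. Around the rule for a bin, 4189 bins were covered in 4 siSUV420H1 and 0 siNC libraries. Another 4455 bins were covered in 3 siSUV420H1 and 0 siNC libraries, and 2490 in 4 siSUV420H1 libraries and 1 siNC library.

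**Figure D1:**
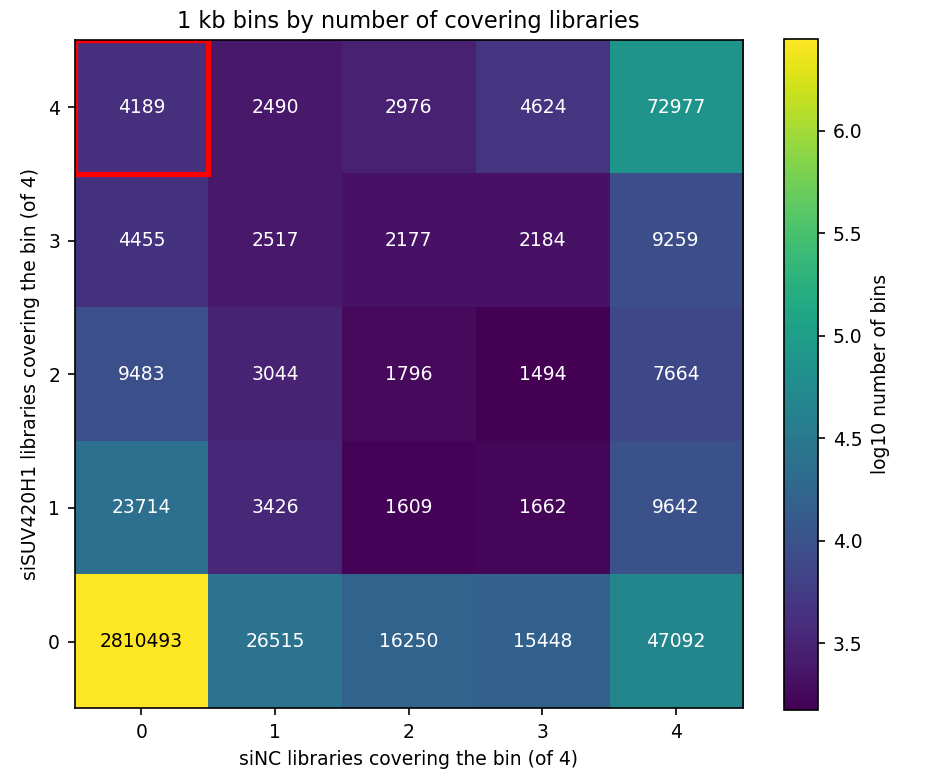
Number of 1 kb bins (log10 colour scale) by how many siSUV420H1 libraries (vertical axis, 0 to 4) and how many siNC libraries (horizontal axis, 0 to 4) covered them. Gained bins are the 4189 covered in 4 siSUV420H1 and 0 siNC libraries, beside 72977 covered in all 8 and 47092 in 0 siSUV420H1 and 4 siNC libraries.

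Short and wide regions differed in where they lay relative to siNC peaks. Among regions under 5 kb, 875 of 1021 (85.7%) touched a siNC peak on 1 side and 91 filled a gap with a siNC peak on both sides, most being strips at the edge of a domain that siNC cells also had. Among regions of 5 kb or more, 230 of 356 (64.6%) lay over 5 kb from every siNC peak, 28 lay 1 to 5 kb away, 78 touched one on 1 side and 20 on both. The median distance of a wide region to the nearest siNC peak was 20 kb, 120 were over 50 kb away and 81 over 100 kb. In 233 of the 356 wide regions (65.4%) the whole siSUV420H1 peak, in each of the 4 libraries, stayed clear of every bin with a siNC peak, against 31 of the 1021 short ones (3.04%). These were separate domains rather than extensions, and the mean width of the 4 siSUV420H1 peaks at such a region was 5 to 23.75 kb, with a median of 8.25 kb over the 264 regions of both sizes. For comparison, the median of this mean over all short regions was 13.75 kb. Peaks of under 5 kb were not listed in any library. A region under 5 kb is therefore always part of a longer peak, and the contrast between short and wide regions follows in part from that limit.

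**Figure D2:**
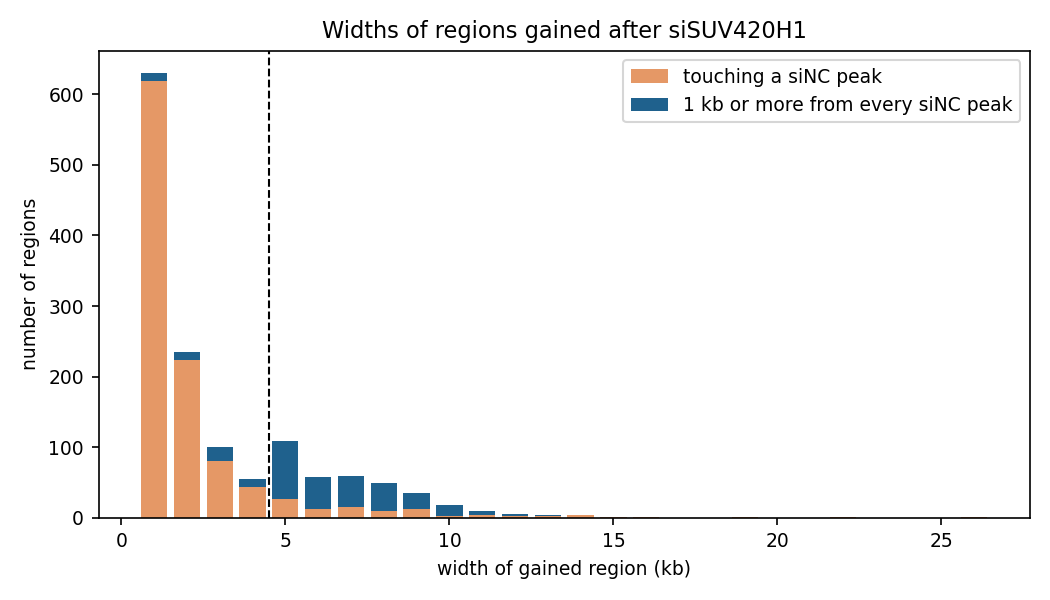
Number of gained regions (vertical axis) by width in kb (horizontal axis), split into regions touching a siNC peak (orange) and regions 1 kb or more from every siNC peak (blue). The dashed line marks the 5 kb limit; most of the 1021 regions left of the line touch a siNC peak, and most of the 356 regions right of it do not.

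How well the choice carried to a library it had not used was described by leaving out each siRNA-arm library in turn and choosing bins on the other 7. The left-out siSUV420H1 libraries covered 83.1, 77.6, 75.4 and 80.3% of the bins chosen without them (79.1% ± 3.34, SD, n = 4). Each left-out siNC library covered 11.5, 15.3, 15.3 and 9.33% (12.9% ± 2.95, SD, n = 4), although none of the other siNC libraries did. The groups did not overlap, and the libraries' shares of all bins were 3.84 to 4.2% and 5.92 to 6.26%.

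The inhibitor arm gave the measurement that the rule did not use. Peaks of the A-196 libraries covered 20.6, 17.7 and 31.9% of the gained bases (23.4% ± 7.53, SD, n = 3), against 22.6, 18.9 and 21.0% in DMSO libraries (20.8% ± 1.82, SD, n = 3). The groups overlapped: replicate 3 of A-196 was above all DMSO libraries, and replicates 1 and 2 were within or below their range. The difference of 2.58 percentage points was smaller than the spread between the A-196 libraries, and without A-196 replicate 3 it was -1.68. The same libraries covered 12.7% ± 4.88 (A-196) and 52.6% ± 0.896 (DMSO) of the lost bases, 52.1% ± 11.8 and 78.3% ± 0.961 of the bases covered in all 8 siRNA-arm libraries, and 3.14% ± 0.487 and 4.80% ± 0.139 of all bins (SD, n = 3 each). Gained bases were thus covered less often in DMSO libraries than lost or constant ones, and A-196 libraries covered no smaller share of them than DMSO libraries did on average, while their shares of lost and of all bases were below those of every DMSO library.

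**Figure D3:**
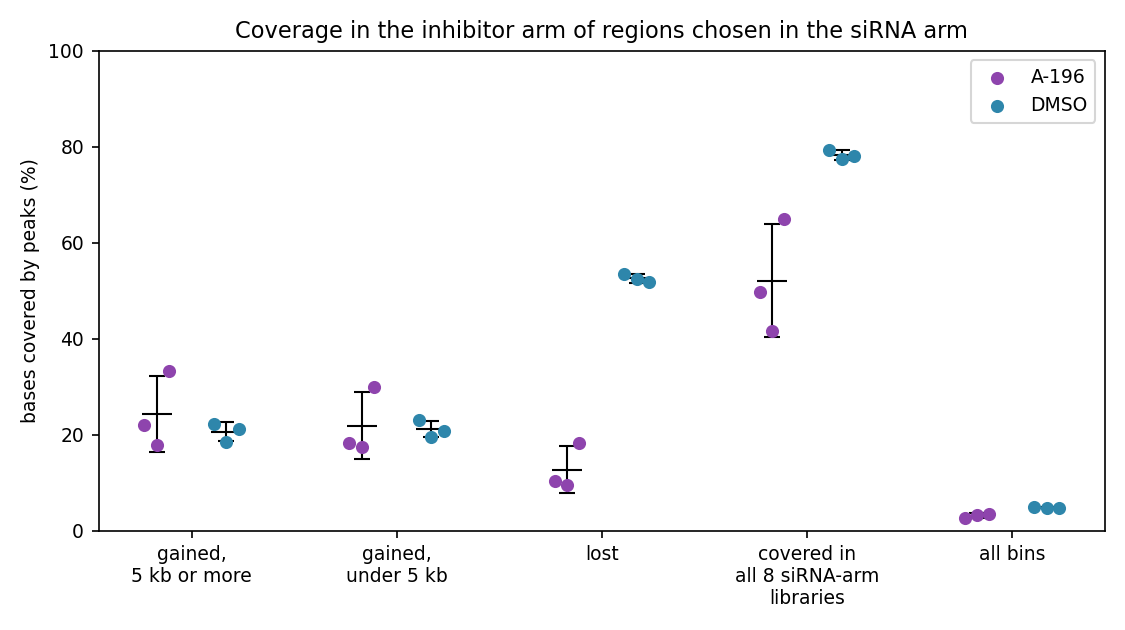
Share of bases covered by peaks (%, vertical axis) in each A-196 (left) and DMSO (right) library for sets of regions chosen in the siRNA arm; points are libraries, and the marks with bars are means with SD (n = 3). The points of A-196 and DMSO overlap for gained regions of 5 kb or more (17.8 to 33.2% and 18.5 to 22.3%) and under 5 kb (17.4 to 29.9% and 19.6 to 23%), and do not overlap for lost regions.

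Bin by bin, 2350 of the 4189 gained bins (56.1%) had no peak in any of the 6 inhibitor-arm libraries, and 306 (7.30%) had one in all 6. All 3 A-196 and no DMSO library covered 80 gained bins (1.91%), where 0.0622% of all bins met that rule. The reverse, all 3 DMSO and no A-196 library, held for 91 gained bins (2.17%), with 1.38% of all bins as background. Of all bins, 91.0% had no peak in any of the 6 libraries and could meet neither rule, against 56.1% of gained bins. The shares of all bins are lowered by such bins and are not a like background for gained bins. Counted as regions, 28 of the 1377 (2.03%) had 1 kb or more in every A-196 and no DMSO library, where 0.568% of the 19894 regions of the siRNA arm did. The reverse, every DMSO and no A-196 library, held for 39 gained regions (2.83%, background 8.14%). The count of 28 was 55 without A-196 replicate 1 and 55 without A-196 replicate 2. The covered length was higher in every A-196 than in every DMSO library in 34 gained regions (2.47%, background 0.95%), and lower in 45 (3.27%, background 23.7%). The share covered longer with A-196 was thus a few per cent and above the background, and the share covered shorter was below it. The background regions are whole merged peaks, while gained regions had a median width of 2 kb and were chosen to lack siNC peaks. A short stretch is more easily free of DMSO peaks. How far both differences from the background follow from width and choice was not tested. Gained regions had few bases under DMSO peaks to begin with: 980 of the 1377 had no peak in any DMSO library, and only a region with one can be shorter after A-196. For a single region no test could pass: with 3 libraries against 3, the exact two-sided permutation test cannot give a p below 0.1, and over the 23866 regions of the arm the smallest Benjamini-Hochberg adjusted p was 0.498.

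The state in DMSO cells divided the 356 wide regions into 3 classes; as DMSO coverage formed them, differences between A-196 and DMSO within a class follow in part from the filter and are a description. In 55 regions, at least 50% of the width was covered in every DMSO library. Here A-196 libraries covered 67.7, 57.6 and 84.2% of the bases (69.8% ± 13.4), against 93.0% ± 3.51 in DMSO libraries (SD, n = 3 each). These regions lacked a peak in all siNC libraries but were domains in the DMSO control cells. Chromosome 19 held 24 of the 55, and 21 overlapped a zinc finger gene. In 257 regions no DMSO library had a peak, and A-196 libraries covered 8.26, 4.69 and 15.2% of their bases. Of the 257, 180 lacked a peak in every A-196 library too, 77 had one in at least 1 A-196 library and 10 in all 3. Only 11 of the 257 were on chromosome 19 and 9 overlapped a zinc finger gene, and 189 (73.5%) lay over 5 kb from every siNC peak. The other 44 regions were between these classes, with 45.2% ± 15.2 covered in A-196 and 36.8% ± 10.2 in DMSO libraries. The 2 control groups come from separate arms, with different IgG libraries behind their peak calls, and the part of that in the difference was not tested.

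Chromosome 19 held 194 gained regions, 44 of them wide, and 627 kb or 15.0% of the gained length, where it makes up 1.90% of all bins and 0.437% of the lost length. By length chromosome X came next, with 103 regions and 9.0% of the gained length, against 1.85% of the lost length and 5.05% of all bins. Chromosome 7, with 116 regions, had 8.26% (lost 6.74%), chromosome 14 had 5.97% (lost 2.14%), chromosome 16 had 5.08% (lost 1.12%) and chromosome 21 had 3.34% (lost 0.843%). Chromosome 6 went the other way, with 2.03% of the gained and 7.91% of the lost length. Regions covered in all 8 siRNA-arm libraries had 8.88% of their length on chromosome 7, 5.24% on 14 and 3.27% on 21, near the gained shares. They had less than gained regions on chromosomes 19 (6.57%), X (2.58%) and 16 (1.62%), and more on chromosome 6 (5.31%). Gained regions were unevenly spread within chromosomes: 656 of 3101 windows of 1 Mb held one, and the 10 windows with most held 627 kb, 15.0% of the length. The outer 1 Mb of a chromosome held 14 of the 356 wide regions (3.93%), 12 of 4527 wide lost regions (0.265%) and 105 of 5909 wide regions covered in all 8 libraries (1.78%). Counted with every bin before the first gene or peak of a chromosome, it makes up 3.68% of all bins. No region can lie in those leading bins, so 3.68% is larger than the share of the outer 1 Mb itself. By length, the outer 1 Mb held 4.25% of wide gained regions, 0.251% of wide lost regions and 3.44% of wide regions covered in all 8 libraries. By length, the gained share was thus near that of the regions covered in all 8. It was not set against the genome, for which no like share was computed.

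**Figure D4:**
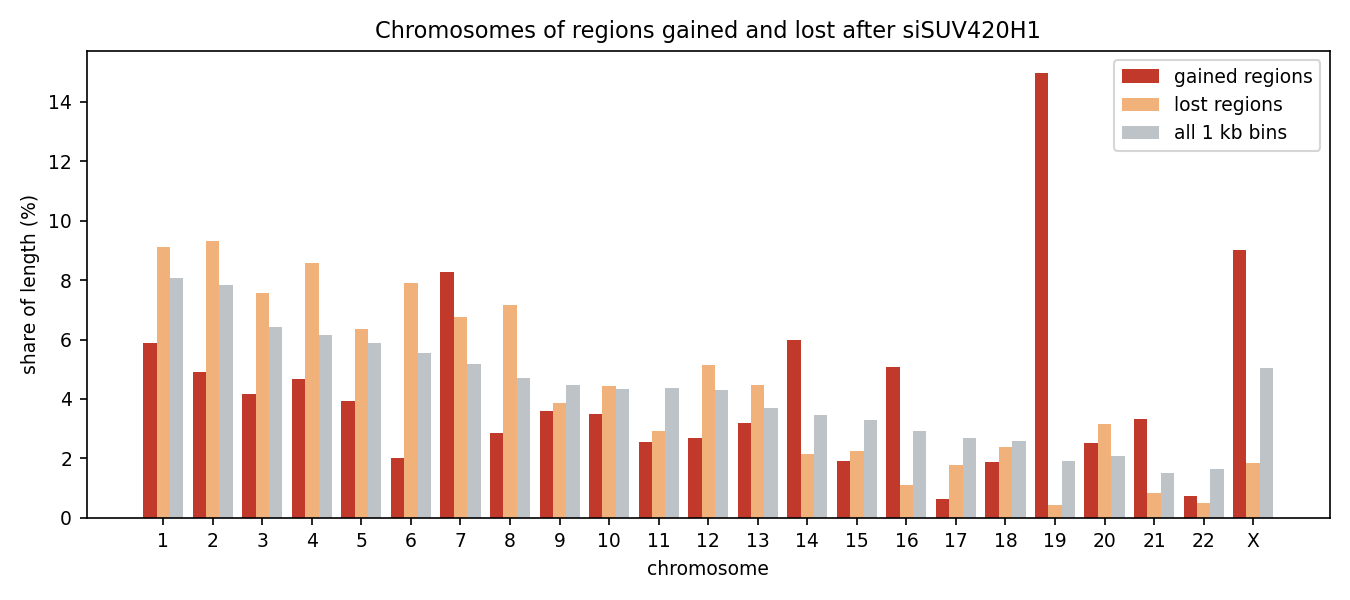
Share of length (%, vertical axis) by chromosome (horizontal axis) for gained regions, lost regions and all 1 kb bins. Chromosome 19 holds 15.0% of the gained length, 0.437% of the lost length and 1.90% of all bins, and chromosome X 9.0, 1.85 and 5.05%. Regions covered in all 8 siRNA-arm libraries, not drawn, have 6.57% of their length on chromosome 19 and 2.58% on X.

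On chromosome 19, 28 of the 44 wide regions overlapped a zinc finger gene. The 1 Mb windows from 21000001, 22000001 and 23000001 held 72, 75 and 83 kb, and that from 57000001, near the end of the long arm, 61 kb. Over the 44 wide regions of this chromosome, peaks covered 56.7, 55.6 and 84.7% of the bases in A-196 libraries (65.7% ± 16.5), against 62.5, 61.1 and 60.8% in DMSO libraries (61.5% ± 0.881, SD, n = 3 each). In the 312 wide regions of the other chromosomes these shares were 17.5% ± 6.62 and 13.9% ± 2.18. The wide regions of chromosome 19 thus carried the mark in the inhibitor arm over most of their length with and without A-196, and those elsewhere over little of it. Within the 21 wide regions between 20 and 25 Mb, A-196 libraries covered 51.4, 51.4 and 86.3%, all above the 45.1, 47.4 and 39.4% in DMSO libraries. This stretch was not set by the rule for naming, and over all 44 wide regions the groups overlapped. Of the 21, 8 had no peak in any DMSO library and could not be lower with A-196.

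Of the gene lists examined, C2H2 zinc finger genes had most members in gained regions. Of the 584 in the RefSeq table, 113 overlapped a gained region by 200 bp or more and 34 a wide one, where 470 and 137 of all 19866 coding genes did. Lost regions overlapped 25 of the 584 and 1255 of all coding genes, and regions covered in all 8 libraries 316 and 1623. Spans of these genes made up 9.60% of the gained length, 0.272% of the lost length, 6.85% of the length covered in all 8 libraries and 0.794% of all bins. Of the 34 genes, 26 also overlapped a region covered in all 8 libraries and 0 a lost one, so most of these genes also carried the mark elsewhere in their span in siNC cells. Of all 137 coding genes in wide gained regions, 64 also overlapped a region covered in all 8 libraries and 15 a lost one. The 36 wide regions at these genes were covered to 53.9, 52.4 and 79.3% in A-196 libraries (61.9% ± 15.1), against 63.8, 57.2 and 62.0% in DMSO libraries (61.0% ± 3.43, SD, n = 3 each). In 10 of the 36 all 6 inhibitor-arm libraries covered the whole width, and 2 of the 36 had no peak in any of them.

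The widest at a zinc finger gene was 16 kb over ZNF680 (chromosome 7, 64555001 to 64571000), which took in the promoter printed above. It touched a siNC peak on 1 side, and the siSUV420H1 peaks that held it were 30, 33, 27 and 31 kb wide. A-196 libraries covered 0, 0 and 5 kb of it, against 13, 6 and 13 kb in DMSO libraries. The groups did not overlap, and the mark was called less after A-196 at a place where it was called more after siSUV420H1. At ZNF91, whose product binds and represses SVA retrotransposons, a 13 kb region (chromosome 19, 23318001 to 23331000) lay in a gap between siNC peaks, inside siSUV420H1 peaks of 98 to 116 kb. It was covered over 13, 6 and 13 kb in A-196 libraries and over 7 kb in each DMSO library.

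A 12 kb region over ZNF419 and ZNF773 (chromosome 19, 57494001 to 57506000) was covered whole in all 3 A-196 and all 3 DMSO libraries. Its neighbour over ZNF419 (57483001 to 57491000, 8 kb) was whole in all 6 as well, and so were regions at ZNF586, ZNF671, ZNF846, ZNF566, ZNF766, ZNF765 and, in the region at 247120001 of chromosome 1, ZNF124, chosen for mention after their values were seen. A further 5 kb region at ZNF124 (247137001 to 247142000) had 0, 0 and 5 kb in A-196 and 5, 4 and 5 kb in DMSO libraries. At ZNF814 (57885001 to 57896000) 11, 10 and 11 kb of 11 were covered in A-196 and 11 kb in each DMSO library. At ZNF235 (chromosome 19, 44301001 to 44313000), where each of the 4 siSUV420H1 peaks was 12 kb wide and spanned just the region, A-196 libraries covered 5, 8 and 9 kb and each DMSO library 9 kb. At the regions covered in all 6, siNC was the only one of the 4 groups with no peak.

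Other zinc finger regions had little or no coverage in DMSO cells. ZNF582 (chromosome 19, 56375001 to 56388000, 13 kb) lay 17 kb from the nearest siNC peak and had peaks of 83, 14, 15 and 13 kb in siSUV420H1 libraries, with 0, 0 and 5 kb covered in A-196 and 0 kb in each DMSO library. An 11 kb region at ZNF695 (chromosome 1, 246997001 to 247008000) had 0 kb in each A-196 library and 1, 0 and 0 kb in DMSO libraries. A 10 kb region at ZNF19 (chromosome 16, 71471001 to 71481000) had none in any of the 6, and ZNF430 (chromosome 19, 21018001 to 21025000, 7 kb) had 7, 4 and 7 kb in A-196 and 2, 0 and 0 kb in DMSO libraries. At ZNF430 the groups did not overlap, with A-196 higher. ZNF19 and ZNF430 were chosen after their values were seen.

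Some of the widest regions lay away from zinc finger genes. The widest of all, 26 kb (chromosome 19, 27700001 to 27726000), overlapped no coding gene and extended a siNC domain on 1 side, within siSUV420H1 peaks of 47, 43, 48 and 45 kb. Its coverage was 15, 7 and 19 kb in A-196 and 24 kb in each DMSO library, so all A-196 libraries were below all DMSO libraries. A 22 kb region at RPSA2 (chromosome 19, 23770001 to 23792000) filled a gap between siNC peaks, and was covered over 17, 13 and 22 kb in A-196 and over all 22 kb in each DMSO library. The third widest, 19 kb, lay at PTPRN2 (chromosome 7, 158305001 to 158324000), which encodes a receptor-type phosphatase of neuroendocrine secretory granules. It was covered over 19, 16 and 19 kb in A-196 and 11, 3 and 8 kb in DMSO libraries. Here the groups did not overlap and A-196 was higher, the direction of siSUV420H1. A 14 kb region on chromosome 2 (89792001 to 89806000) had 1, 0 and 1 kb in A-196 and 0 kb in each DMSO library. Another, on chromosome 19 (22263001 to 22277000), had 0, 5 and 14 kb in A-196 and 3, 0 and 0 kb in DMSO libraries. The 14 kb region on chromosome 8 (84020001 to 84034000) had no peak in any of the 6 libraries.

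A block on chromosome 16, at 34000001 to 35000000, held more gained length than any other 1 Mb window: 21 regions, 11 of them wide, with 114 kb. None of the 11 wide regions overlapped a coding gene. DMSO libraries covered none of their bases, and A-196 libraries 20.8, 6.25 and 22.9%. The widest, 12 kb at 34951001 to 34963000, had no peak in any of the 6 libraries. A region of 11 kb at 34793001 to 34804000, chosen because every A-196 and no DMSO library had a peak in it, had 4, 2 and 6 kb under A-196 peaks. On chromosome X, regions of 13 kb lay at 89175001 to 89188000 and 89129001 to 89142000. The one at 89175001 was covered over 10, 13 and 13 kb in A-196 and over 4, 1 and 0 kb in DMSO libraries, and the one at 89129001 over 0, 0 and 10 kb in A-196 and 0 kb in each DMSO library.

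The widest regions with a peak in every A-196 and no DMSO library numbered 5 by the rule for naming. In an 8 kb region on chromosome 7 (57645001 to 57653000), within siSUV420H1 peaks of 186 to 189 kb, all 3 A-196 libraries covered all 8 kb. A 9 kb region on chromosome 11 (48813001 to 48822000) was covered over 8, 7 and 9 kb. The 10 kb region on chromosome 19 (23954001 to 23964000), over 5 kb from every siNC peak, was covered over 5, 3 and 5 kb, and a 14 kb region on chromosome 1 (117828001 to 117842000) over 2, 3 and 2 kb. With the 11 kb region of chromosome 16 above, all 5 lacked a coding gene, and 4 of them touched a siNC peak. The rule that chose these 5 fixes the absence of DMSO and siNC peaks within them, and the A-196 peaks covered from 2 to 3 kb of the 14 kb region to the whole of the 8 kb one.

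**Figure D5:**
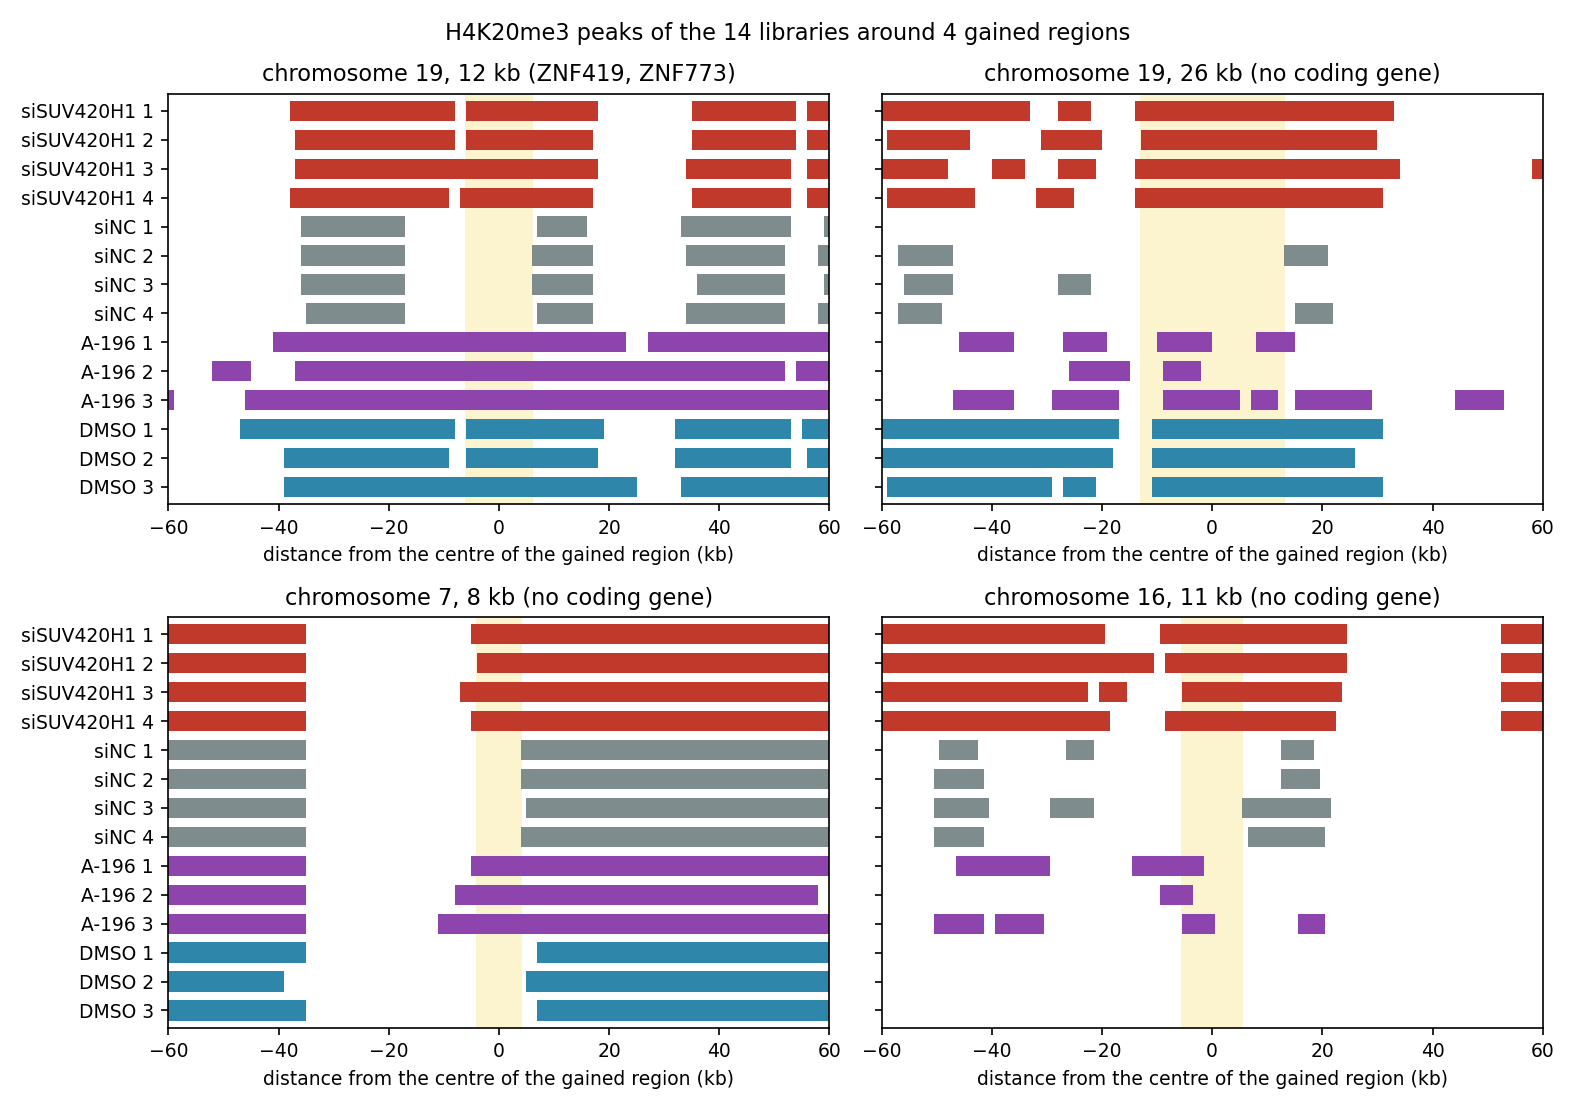
Peaks (bars) of the 14 H4K20me3 libraries, 1 row each with siSUV420H1 above siNC and A-196 above DMSO, within 60 kb of the centre of 4 gained regions (shaded; horizontal axis, distance from the centre in kb). The shaded stretch is covered in all siSUV420H1 and no siNC rows by choice; it is covered in all 6 inhibitor-arm rows at ZNF419 and ZNF773, less in A-196 than in DMSO rows in the 26 kb region, and in A-196 rows only in the 8 kb and 11 kb regions.

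Isolated domains made up another group. In 81 wide regions, none on chromosome 19 and 0 at a zinc finger gene, the nearest siNC peak was over 100 kb away, and 33 of them overlapped a coding gene. Of the 81, 58 had no peak in any inhibitor-arm library, and coverage was 9.52, 4.31 and 18.3% in A-196 against 14.4, 11.3 and 11.7% in DMSO libraries, so the groups overlapped. The most distant, 6 kb at SHISA9 (chromosome 16, 13305001 to 13311000), was 2665 kb from the nearest siNC peak and had no peak in any of the 6. The same held at PPP2R2C, a regulatory subunit of the phosphatase PP2A (chromosome 4, 6507001 to 6516000), LSS, lanosterol synthase of cholesterol synthesis (chromosome 21, 46196001 to 46205000), RANGAP1, the activator of the GTPase Ran (chromosome 22, 41289001 to 41297000), and ALMS1, a centrosomal protein (chromosome 2, 73489001 to 73497000). At RABGAP1L (chromosome 1, 174845001 to 174854000, 9 kb), no A-196 library had a peak and DMSO libraries covered 8, 9 and 8 kb, while a 9 kb region on the same chromosome (228617001 to 228626000), 313 kb from a siNC peak, was covered whole in all 6. These examples were chosen after their values were seen.

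A coding gene was overlapped by 140 of the 356 wide regions (39.3%), a long noncoding RNA gene alone by 43, and no annotated gene by 153 (43.0%). Coding gene spans made up 36.4% of the gained length, 21.7% of the lost length and 41.4% of all bins, so gained regions lay in genes more than lost ones and less than the genome as a whole. Among the gene groups named by the rule, FMN1, an actin-nucleating formin, held a 10 kb region (chromosome 15, 32774001 to 32784000) with no peak in any A-196 or DMSO library. The olfactory receptor list, 389 genes, had 1 in gained regions: OR11H4 (chromosome 14, 20234001 to 20242000, 8 kb), with 0, 0 and 6 kb covered in A-196 and 0 kb in each DMSO library.

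The remaining gene lists had few or no members in gained regions, which held 2.37% of all coding genes, where lost regions held 6.32%; at these shares a short list may hold none or few. Clustered protocadherins, adhesion proteins of neurons, counted 19 of 53 genes, but through 4 regions of 1 or 2 kb inside the nested spans of the PCDHG genes, so they are not 19 separate events. Of the 25 imprinted genes, SNRPN had a 1 kb region, and of the 26 genes for H4K20 methylation and heterochromatin, SETDB1 and EHMT1, both H3K9 methyltransferases, had one of 1 kb each. KMT5B and KMT5C, on that list, had none. Interferons and interferon-stimulated genes had 0 of 64 in gained and 12 in lost regions, chemokines 0 of 43 and 4, keratins and their associated proteins 0 of 149 and 7, the epidermal differentiation complex 0 of 55 and 11, other protocadherins and cadherins 0 of 36 and 5, and squamous epithelial genes 0 of 12 and 3. Markers of other cell types had 0 of 15 in gained and 2 in lost regions. Cancer-testis genes (77), histone genes (87) and HOX genes (40) had 0 in either.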

How the data were processed

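H4K20me3 CUT&RUN libraries of HN-SCC-151 cells were used (14 of 24 samples listed), grouped by their titles; the other 10 were not analysed here. Each deposited list gives the positions of broad peaks, start and end, for 1 library, called by the authors for each library alone against 1 IgG library, with duplicate reads removed, per the labels. The submitters' processing notes name hg38, cutadapt 4.4, Bowtie, Picard 2.27.3 and bedtools 2.30.0. No label or header names the peak caller or its settings, and depth is unknown, so no interval that needs it is given.

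Peaks were laid on a grid of 1 kb bins with Python 3.11.15 and numpy 2.4.6, and figures were drawn with matplotlib 3.10.9. The steps were tested on simulated peak lists. Coordinates are 1-based. Gene spans (19866 coding genes, without strand or exons) and promoters (15843 genes) came from RefSeq, GRCh38.p14. A gene was counted at 200 bp of overlap or more, and exons, introns, repeats and base composition of whole regions were not analysed here. Overlapping genes cannot be told apart.

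Regions were named by rule: the 12 widest, the 5 widest others with a coding gene, the 5 widest with every A-196 and no DMSO library, and the 3 widest of each gene list; others are said to be chosen after their values were seen. The members and gene lists were chosen with earlier results of these data known. The covered length of each region of the inhibitor arm was compared by an exact permutation test with Benjamini-Hochberg adjustment and a threshold of 0.05. Regions on chromosome Y are in the totals and are not described singly.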

Additional observations from a re-analysis of the deposited data

Results flagged for a closer look

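In 4 named regions, 1 of the 4 siSUV420H1 libraries was flagged for a peak width apart from the other 3. At ZNF582 on chromosome 19 replicate 1 had a peak of 83 kb, against 13 to 15 kb in the other libraries. At ZNF419 and ZNF773 replicate 3 had 55 kb, against 23 to 24 kb. At ZNF814 replicate 2 had 14 kb, against 12 kb in each of the others, and in the 10 kb region at 23954001 of chromosome 19 replicate 1 had 20 kb, against 10 kb in each. There were 30 groups of 4 libraries examined, and for values without ties chance alone marks about 1 in 20. Where 3 widths are equal, as at ZNF814 and at 23954001, any other width is flagged, however small the difference.

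In 2 of the 22 regions named by rule, every A-196 library was below every DMSO library, opposite to the direction of siSUV420H1. Regions with a lower A-196 mean but without this separation are not counted. The 26 kb region at 27700001 of chromosome 19, gained after siSUV420H1, had a mean difference of -10.3 kb (A-196 minus DMSO), with every A-196 library below every DMSO library. The 16 kb region over ZNF680 had a mean difference of -9 kb, again with no overlap between A-196 and DMSO libraries. Among all gained regions, 45 of 1377 (3.27%) were lower in every A-196 than in every DMSO library, and 34 were higher. Of the 19894 regions of the siRNA arm, 23.7% were lower and 0.95% higher. The region at RABGAP1L, chosen after its values were seen, was lower too. Lower coverage after A-196 was thus not particular to these 2 regions. The difference between the arms was not tested.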

How the results depend on the processing

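Without 1 library of the siRNA arm, the 1377 gained regions (356 of 5 kb or more, 4.189 Mb) numbered 1497 to 1762, with 393 to 481 wide ones over 4.62 to 5.56 Mb; fewer libraries make the rule easier to meet. The 28 regions with every A-196 and no DMSO library numbered 30 to 55 without 1 inhibitor-arm library, and the difference of 2.58 percentage points ran between -1.68 and 5.44. With the same number of widest peaks in each library, 769 wide regions and 7.104 Mb were gained. Without regions within 5 kb of a siNC peak, 267 regions, 230 of them wide, and 1.705 Mb were left, 3 of them with every A-196 and no DMSO library. Whole peak regions of the arm in place of bins gave 279 gained regions. A limit of 9 kb left 80 wide regions, and 10 of the 28 were of 5 kb or more. The outer 0.5 Mb held 1.69% and the outer 2 Mb 7.30% of wide regions. In the other settings the counts were within 1.5 times.

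No pairing by replicate number was visible in the peak calls. Deviations of same-numbered siRNA libraries correlated at -0.036 to 0.0141 and of others at -0.0402 to 0.0452. In the inhibitor arm the correlations were 0.00105 to 0.00893 and -0.0113 to 0.0104. These values cannot show whether same-numbered libraries were prepared together. With the numbers as a replicate block, gain in each pair gave the same 1377 regions by construction and the A-196 difference was again 2.58. Gain in at least 3 pairs and loss in none, a looser rule, gave 3142 regions, 1007 of them wide, over 11.134 Mb. The unknown depth limits every count, since a region without a peak can hold signal under the calling threshold, and differences under 1 kb are not visible.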
